A study of Homo sapiens with 16 samples.

Results

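TRAF1, BIRC3, TNFAIP3, TNFAIP2 and SOD2 are genes that the transcription factor NF-kB is known to induce. The products of TRAF1, BIRC3, TNFAIP3 and SOD2 act in feedback on the pathway or protect the cell, and that of TNFAIP2 takes part in the formation of tunnelling nanotubes. The genes were taken by name from the deposited gene table and make up 5 of its 8808 genes. All 5 were measured in all 12 libraries. They were picked with their levels in these libraries known, and the table itself held genes headed as significantly differentially expressed, so their levels and differences below are a description and carry no test.

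The study sequenced polyadenylated RNA of U2OS, a cell line from a human osteosarcoma, after transfection of small interfering RNAs (siRNAs). The groups were siMRG15 (gene MORF4L1), siMRGX (gene MORF4L2), siMRGBP (gene MRGBP), siBRD8 (gene BRD8), siTIP60 (gene KAT5) and siLuc, an siRNA against luciferase that served as the control. Each group held 2 libraries, 12 in all. Per the labels, siMRG15, siMRGX, siMRGBP and siTIP60 were smartpool mixtures from Dharmacon, siBRD8 was a single catalogue siRNA from Sigma, and all cells grew in DMEM with 10% FBS and no other treatment. MRG15 and MRGX are paralogous chromatin proteins, and MRGBP, BRD8 and TIP60 are subunits of the TIP60 histone acetyltransferase complex, of which MRG15 and MRGX are also members. The labels do not say whether replicates were grown separately, so the spread between them may be technical.

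NF-kB is a family of dimeric transcription factors held in the cytoplasm by IkB proteins. Receptors of the tumour necrosis factor (TNF) and interleukin-1 families act through TRAF adaptors, ubiquitin ligases and kinases to degrade IkB, after which NF-kB enters the nucleus and induces inflammatory, feedback and survival genes. TNFAIP3 encodes A20, a ubiquitin-editing enzyme that shuts the signal off. TRAF1 encodes an adaptor of TNF receptors, and BIRC3 encodes cIAP2, a ubiquitin ligase of the inhibitor-of-apoptosis family that binds TRAF proteins. SOD2 encodes the manganese superoxide dismutase of mitochondria. TNFAIP2 encodes M-Sec, a TNF-induced protein that takes part in the formation of tunnelling nanotubes.

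The promoter windows of the 5 genes are shown because a motif search separated them. Each window runs from 250 bases before to 50 bases after an annotated start and is credited to RefSeq, build GRCh38.p14; the expression table was made with build hg19, so no position is carried from one to the other. For genes with several annotated starts 1 window is printed, start 1 of 3 for TRAF1 and start 4 of 4 for SOD2. The windows lie at chr6:137867009-137867308 (plus strand) for TNFAIP3, chr11:102317234-102317533 (plus strand) for BIRC3, chr9:120929122-120929421 (minus strand) for TRAF1, chr6:159693192-159693491 (minus strand) for SOD2 and chr14:103123211-103123510 (plus strand) for TNFAIP2. Each sequence reads 5′ to 3′ on the strand of its gene, and capitals mark matches to the NF-kB consensus on either strand.
TNFAIP3: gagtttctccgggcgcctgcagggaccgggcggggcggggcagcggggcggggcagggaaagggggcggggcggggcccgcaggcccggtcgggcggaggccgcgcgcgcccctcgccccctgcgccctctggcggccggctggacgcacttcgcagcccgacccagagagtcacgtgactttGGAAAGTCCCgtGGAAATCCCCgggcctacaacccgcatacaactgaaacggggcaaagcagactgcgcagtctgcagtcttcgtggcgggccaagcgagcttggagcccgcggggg
BIRC3: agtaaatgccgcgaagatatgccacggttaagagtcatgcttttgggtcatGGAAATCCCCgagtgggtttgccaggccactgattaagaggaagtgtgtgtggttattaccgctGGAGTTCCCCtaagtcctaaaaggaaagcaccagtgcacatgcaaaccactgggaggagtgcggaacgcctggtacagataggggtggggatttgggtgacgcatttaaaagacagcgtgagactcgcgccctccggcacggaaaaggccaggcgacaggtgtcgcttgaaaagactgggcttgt
TRAF1: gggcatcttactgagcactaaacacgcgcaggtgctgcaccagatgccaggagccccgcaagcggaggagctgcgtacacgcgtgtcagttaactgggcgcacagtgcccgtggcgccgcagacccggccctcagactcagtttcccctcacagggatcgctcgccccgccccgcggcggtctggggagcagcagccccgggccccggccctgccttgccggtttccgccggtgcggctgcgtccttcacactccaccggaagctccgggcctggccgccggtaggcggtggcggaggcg
SOD2: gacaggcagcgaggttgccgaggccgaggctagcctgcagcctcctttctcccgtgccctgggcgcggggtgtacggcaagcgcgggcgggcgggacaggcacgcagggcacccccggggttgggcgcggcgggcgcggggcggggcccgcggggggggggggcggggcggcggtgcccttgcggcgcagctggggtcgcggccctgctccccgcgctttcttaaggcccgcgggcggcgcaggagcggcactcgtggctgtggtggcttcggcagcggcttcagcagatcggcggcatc
TNFAIP2: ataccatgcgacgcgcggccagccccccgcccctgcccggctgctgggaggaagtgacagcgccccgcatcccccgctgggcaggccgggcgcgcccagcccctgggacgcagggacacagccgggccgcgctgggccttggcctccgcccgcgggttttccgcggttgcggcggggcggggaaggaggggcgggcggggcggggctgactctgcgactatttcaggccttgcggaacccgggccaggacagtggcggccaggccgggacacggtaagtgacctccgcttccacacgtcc

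TNFAIP3 held 2 matches to the NF-kB consensus, which begin 67 and 55 bases before its start and read GGAAAGTCCC and GGAAATCCCC on the strand of the gene. BIRC3 also held 2, which begin 199 and 135 bases before its start and read GGAAATCCCC and GGAGTTCCCC. All 4 matched the consensus on the opposite strand. None was found in the 3 windows of TRAF1, the 4 of SOD2 or the 1 of TNFAIP2. Of the 35116 windows in the reference, 5.91% held at least 1 match, and of its 27305 genes 7.09% did. A match describes letters in the window, not binding, and the absence of one says nothing about sites outside it.

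Other promoter letters differed among the 5 as well. The GC box GGGCGG, searched on both strands, occurred 6 times in the window of TNFAIP3, 6 times in that of TNFAIP2, 6 times in the printed window of SOD2 and 1 time in that of TRAF1, with neighbouring boxes that can lie next to each other, and was not found in that of BIRC3. It was present in 45% of all windows. Neither the AP-1 site TGANTCA (7.71% of all windows) nor the TATA box TATAAA (11.5%) was found in any window of the 5 genes. The windows ranged from 53.3% GC in BIRC3 to 73.7% in TNFAIP3, 75.7% in TNFAIP2 and 78.3% in the printed window of SOD2, and the median of all windows was 58.7%.

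**Figure D1:**
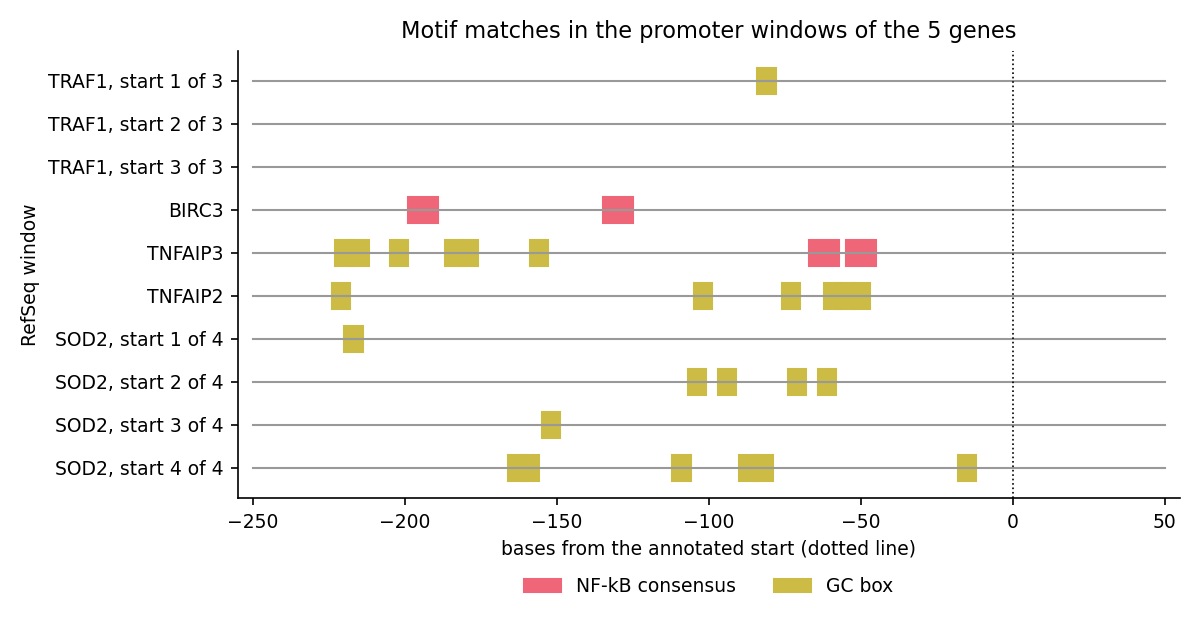
Matches to the NF-kB consensus and the GC box in the 10 RefSeq promoter windows of the 5 genes, drawn by distance in bases from the annotated start (dotted line at 0); each grey line is 1 window. NF-kB matches lie in the windows of BIRC3 and TNFAIP3, 2 in each, and in no window of the other 3 genes.

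Levels are in CPM, read counts that the authors scaled to library size. The CPM steps of every library corresponded to whole reads, which put the effective library sizes at 57255783 to 110402095 reads and the reads in listed genes at 20444328 to 42177876. Each siRNA lowered the transcript of its own target, with log2 differences from siLuc of -4.36 for MORF4L1, -3.68 for MORF4L2, -3.54 for MRGBP, -1.99 for BRD8 and -2.47 for KAT5. Targets of other siRNAs were lower as well. MORF4L2 stood at -0.76 in siMRG15, -0.49 in siMRGBP, -0.61 in siBRD8 and -0.94 in siTIP60. MRGBP stood at -0.58 in siMRG15, -0.43 in siBRD8 and -1.18 in siTIP60. BRD8 stood at -0.68 in siMRGBP and -0.69 in siTIP60, and MORF4L1 at -0.18 in siMRGBP and -0.66 in siTIP60. In siMRGX no other target had a limma adjusted p under 0.05. The cause was not tested. Differences between groups are given on the log2(CPM + 1) scale with the standard error (SE) of a limma fit to all 12 libraries, n = 2 libraries per group, and understate the fold of low genes. The 2 libraries of a group differed by a median of 0.053 (siBRD8) to 0.127 (siMRGBP) over all genes on this scale, and by 0.122 in siLuc. In bulk RNA, a change in the share of cells that express a gene and a change in RNA per cell cannot be told apart.

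Markers of cell types were read where they were among the deposited genes. Those genes were headed as differentially expressed, so a marker missing from them may still be expressed. The levels therefore do not test the cell type. Of 9 osteoblast and mesenchymal markers 4 were measured (RUNX2, ALPL, COL1A1 and VIM), and none was at 0 in any library. Of 8 leukocyte and macrophage markers 3 were measured (PTPRC, ITGAM and CSF1R), and their summed level was 2.67 to 2.75 CPM in siMRG15, 2.13 to 2.64 CPM in siMRGX, 3.3 to 3.66 CPM in siMRGBP, 3.39 to 3.83 CPM in siBRD8 and 8.3 to 11.8 CPM in siTIP60, against 2.68 to 2.8 CPM in siLuc. None of the 3 was at 0 in a library. The single measured marker of 8 for erythroid and myeloid K562 cells, HBA1, was at 0.0422 and 6.74 CPM in siTIP60 and at 0 to 0.0297 CPM in the other groups. The part of these levels in the siTIP60 results was not tested.

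The feedback enzyme TNFAIP3 was above siLuc in all 5 knockdowns. Its level was 15.8 and 16.5 CPM in siMRG15, 27.4 and 25.6 CPM in siMRGX, 46.9 and 32.1 CPM in siMRGBP, 19.0 and 19.3 CPM in siBRD8, and 36.0 and 37.0 CPM in siTIP60, against 11.9 and 10.7 CPM in siLuc. Both siLuc libraries lay below every knockdown library, and the siMRGBP libraries were the farthest apart of any group, with the siTIP60 pair between them. In order the group means ran from siMRGBP and siTIP60, whose ranges overlapped, through siMRGX, siBRD8 and siMRG15 to siLuc. The log2 differences from siLuc were 0.49 ± 0.13 for siMRG15, 1.16 ± 0.13 for siMRGX, 1.70 ± 0.13 for siMRGBP, 0.72 ± 0.13 for siBRD8 and 1.61 ± 0.13 for siTIP60 (SE). The SE pools the spread of all groups and does not show that of siMRGBP alone. Without replicate 1 of siMRGBP its difference was 1.43, and without replicate 2 it was 1.96.

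TRAF1, the receptor adaptor, spanned the widest range in fold of the 5 genes. Its level was 2.09 and 1.76 CPM in siMRG15, 37.2 and 38.8 CPM in siMRGX, 11.0 and 7.95 CPM in siMRGBP, 10.3 and 11.1 CPM in siBRD8, and 25.1 and 28.0 CPM in siTIP60, against 2.40 and 2.37 CPM in siLuc. Both siMRGX libraries were above those of every other group, siTIP60 came next, siBRD8 and siMRGBP overlapped below it, and siMRG15 lay just under siLuc. The mean CPM was 16-fold that of siLuc in siMRGX, 3.97-fold in siMRGBP, 4.49-fold in siBRD8 and 11.1-fold in siTIP60, and 0.809 of it in siMRG15. The log2 differences were -0.21 ± 0.12 for siMRG15, 3.53 ± 0.12 for siMRGX, 1.61 ± 0.12 for siMRGBP, 1.79 ± 0.12 for siBRD8 and 3.02 ± 0.12 for siTIP60 (SE). These values rest on 141 to 2776 reads per library. The siMRGBP value was 1.40 without replicate 1 of siMRGBP and 1.82 without replicate 2. Because the siLuc level is low, the differences depended on the pseudocount. With 5 CPM in place of 1 they fell to 2.54 for siMRGX, 0.96 for siMRGBP, 1.09 for siBRD8 and 2.09 for siTIP60. With 0.5 CPM they rose to 3.74, 1.77, 1.96 and 3.23 in the same order.

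BIRC3, the ubiquitin ligase, was high in 4 knockdowns and low in siMRG15. Its level was 5.17 and 5.79 CPM in siMRG15, 54.3 and 47.9 CPM in siMRGX, 53.4 and 39.7 CPM in siMRGBP, 39.3 and 39.9 CPM in siBRD8, and 84.9 and 97.4 CPM in siTIP60, against 9.49 and 11.1 CPM in siLuc. The siTIP60 libraries stood above all others, the ranges of siMRGX and siMRGBP overlapped, as did those of siMRGBP and siBRD8, and the siMRG15 libraries were the lowest of the 12. The log2 differences were -0.80 ± 0.12 for siMRG15, 2.21 ± 0.12 for siMRGX, 2.06 ± 0.12 for siMRGBP, 1.85 ± 0.12 for siBRD8 and 3.03 ± 0.12 for siTIP60 (SE). The siMRGBP value was 1.85 without replicate 1 of siMRGBP and 2.27 without replicate 2. BIRC3 reads per library ranged from 348 to 9241.

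SOD2, the mitochondrial superoxide dismutase, was above siLuc in all 5 knockdowns. Its level was 56.7 and 60.5 CPM in siMRG15, 105 and 107 CPM in siMRGX, 56.2 and 60.5 CPM in siMRGBP, 84.8 and 87.7 CPM in siBRD8, and 76.0 and 78.5 CPM in siTIP60, against 49.7 and 43.5 CPM in siLuc. The siMRGX libraries were the highest, siBRD8 lay above siTIP60, siMRG15 and siMRGBP overlapped, and the siLuc libraries were the lowest. The log2 differences were 0.33 ± 0.07 for siMRG15, 1.17 ± 0.07 for siMRGX, 0.32 ± 0.07 for siMRGBP, 0.88 ± 0.07 for siBRD8 and 0.72 ± 0.07 for siTIP60 (SE).

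TNFAIP2, the nanotube protein, was the only one of the 5 genes below siLuc in siMRGX and siBRD8. Its level was 21.5 and 22.6 CPM in siMRG15, 11.0 and 10.4 CPM in siMRGX, 27.7 and 29.0 CPM in siMRGBP, 17.0 and 17.0 CPM in siBRD8, and 40.2 and 39.3 CPM in siTIP60, against 22.4 and 23.0 CPM in siLuc. The siTIP60 and siMRGBP libraries lay above siLuc, the siMRG15 range overlapped that of siLuc, and siBRD8 and siMRGX lay below, with siMRGX the lowest. The log2 differences were -0.04 ± 0.06 for siMRG15, -1.02 ± 0.06 for siMRGX, 0.31 ± 0.06 for siMRGBP, -0.40 ± 0.06 for siBRD8 and 0.78 ± 0.06 for siTIP60 (SE). Thus in siMRGX, where TRAF1 and SOD2 had their highest levels, TNFAIP2 had its lowest.

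**Figure D2:**
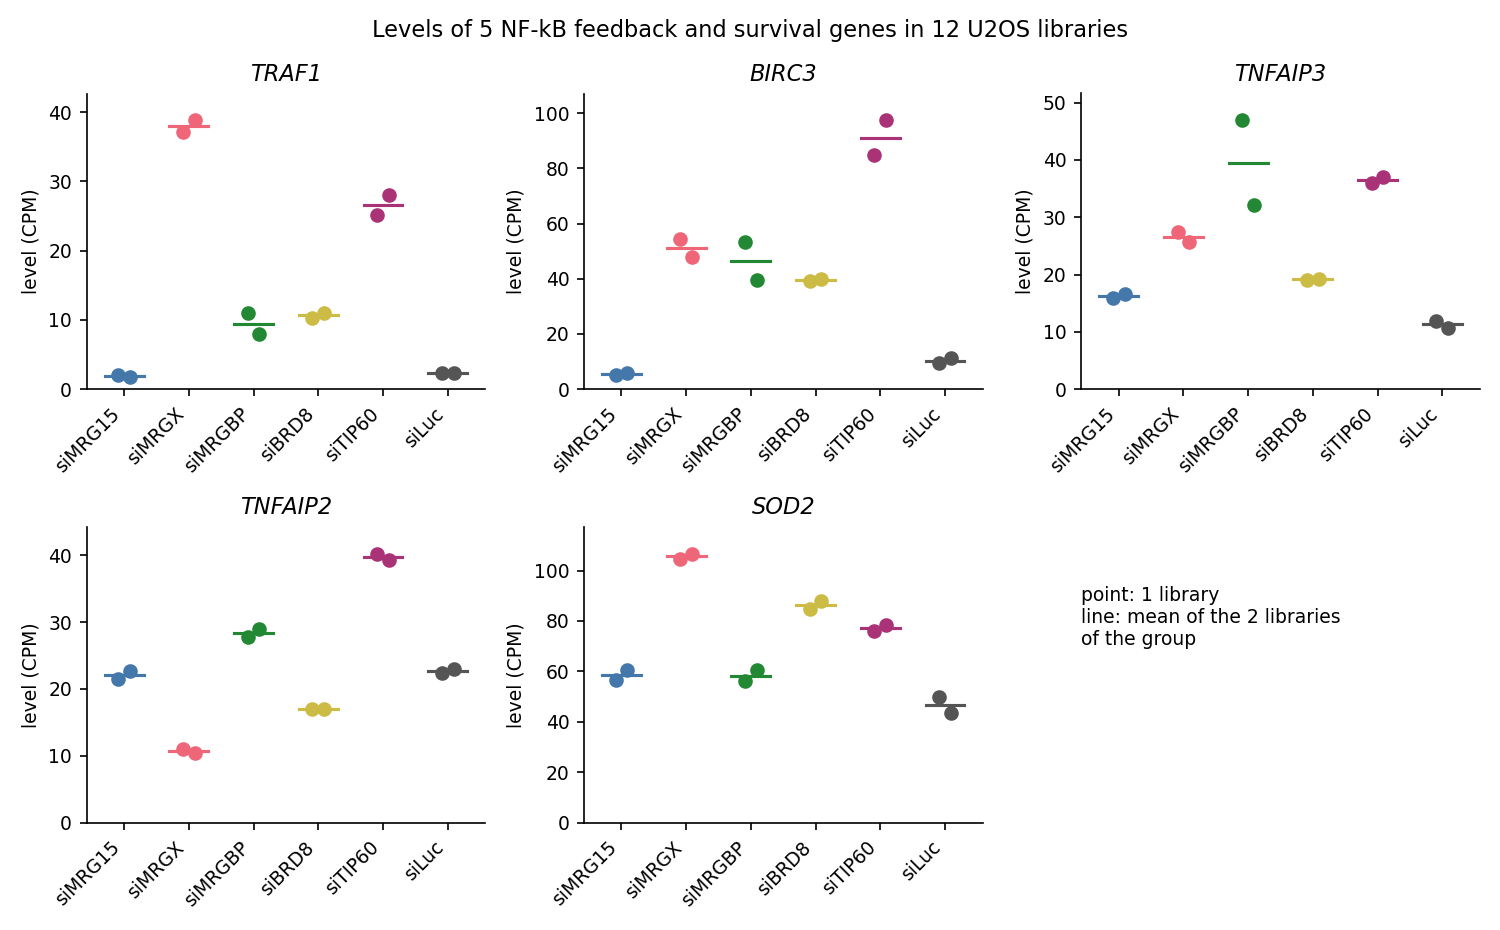
Level in CPM (vertical axes, linear from 0) of TRAF1, BIRC3, TNFAIP3, TNFAIP2 and SOD2 in the 2 libraries of each siRNA group (points) with the group mean (line). TRAF1 and SOD2 are highest in siMRGX and BIRC3 and TNFAIP2 in siTIP60, while TNFAIP2 at 11.0 and 10.4 CPM is lowest in siMRGX.

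A call here means a limma adjusted p under 0.05, adjusted by Benjamini-Hochberg over the 8808 genes. Of the 5 genes, 2 were called higher and 1 lower in siMRG15, where 33.5% of all genes were called higher and 35.8% lower. In siMRGX 4 were called higher and 1 lower (all genes, 28.2% higher and 40% lower), and in siMRGBP all 5 higher (32.1% higher and 32.9% lower). In siBRD8 4 were called higher and 1 lower (28.3% and 25.9%), and in siTIP60 all 5 higher (41.1% and 37.7%). The 2 without a call were TRAF1 and TNFAIP2 in siMRG15. The median log2 difference of the 5 genes was -0.04 in siMRG15, 1.17 in siMRGX, 1.61 in siMRGBP, 0.88 in siBRD8 and 1.61 in siTIP60, beside medians over all genes of -0.03, -0.10, -0.02, 0.01 and 0.05 in the same order. The 5 genes were chosen on these contrasts, which share the siLuc libraries, so nothing is read from the counts.

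The split of calls over all genes moved with the scaling. In siMRGX it was 2488 higher and 3520 lower as deposited, and 3120 higher and 2886 lower with median-of-ratios factors. These factors centre the genes of each library, so a median of all genes near 0 (here 0.00) follows from the method. Under that scaling the siMRGX differences of the 5 genes kept their signs, at 3.68 for TRAF1, 2.37 for BIRC3, 1.33 for TNFAIP3, -0.86 for TNFAIP2 and 1.33 for SOD2. The larger side of the split also changed elsewhere. It became higher in siMRG15 (3249 and 2918) and lower in siTIP60 (3366 and 3511) with TMM factors, another scaling. With median-of-ratios factors it became higher in siMRGBP (2937 and 2769), in siMRGX against siMRG15 (3441 and 3198) and in siMRGX against siMRGBP (3240 and 3152). It stayed higher in siBRD8 under both. Both scalings were computed from the deposited genes alone, which held 30.4% to 38.2% of the reads of a library. They assume that most genes are unchanged, which genes headed as differentially expressed may not meet. The splits therefore do not show which scaling is right.

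**Figure D3:**
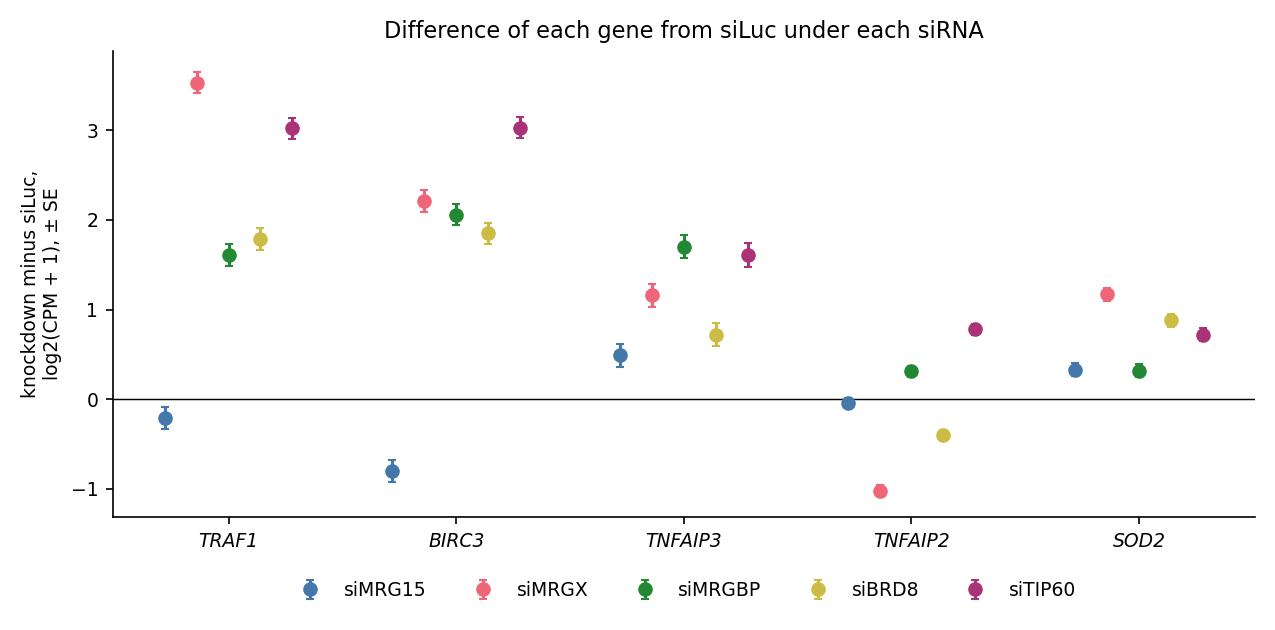
Difference of each gene from siLuc in each knockdown (vertical axis, log2(CPM + 1), point, with bars of ± 1 SE, n = 2 libraries per group). TRAF1 in siMRGX (3.53) and siTIP60 (3.02) and BIRC3 in siTIP60 (3.03) stand highest, and TNFAIP2 in siMRGX (-1.02) is the lowest point.

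The paralogs gave different levels when set against each other. In siMRGX relative to siMRG15 the log2 difference was 3.74 ± 0.12 for TRAF1, 3.01 ± 0.12 for BIRC3, 0.68 ± 0.13 for TNFAIP3, -0.98 ± 0.06 for TNFAIP2 and 0.84 ± 0.07 for SOD2 (SE, n = 2 libraries per group). The library ranges of siMRGX and siMRG15 were apart for all 5 genes. The share of all genes with ranges apart was not computed, so nothing is read from this count. Of all genes 33.6% were called higher and 40.8% lower in this comparison, and of the 5 genes 4 were higher and 1 lower.

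Between siMRGX and siMRGBP the 5 genes went both ways. The log2 difference was 1.91 ± 0.12 for TRAF1 and 0.85 ± 0.07 for SOD2, against -0.53 ± 0.13 for TNFAIP3 and -1.33 ± 0.06 for TNFAIP2 (SE). BIRC3 stood at 0.14 ± 0.12, with overlapping libraries. Of the 5 genes 2 were called higher and 2 lower, where 30.1% and 40.9% of all genes were. The 2 siMRGBP libraries decided part of these values: without replicate 1 of siMRGBP the TNFAIP3 difference was -0.27 and that of BIRC3 0.35, and without replicate 2 they were -0.80 and -0.07.

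Across the 12 libraries the 5 genes varied together to different degrees. On the log2(CPM + 1) scale Pearson's r was 0.91 between TRAF1 and BIRC3, 0.84 between TRAF1 and SOD2, 0.81 between BIRC3 and TNFAIP3 and 0.72 between TRAF1 and TNFAIP3. TNFAIP2 had r of 0.30 with TNFAIP3, 0.12 with BIRC3, -0.18 with TRAF1 and -0.51 with SOD2. The points are 6 groups of 2 libraries that share an siRNA, so these values describe 6 conditions and not 12 independent samples.

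The genes with the most similar pattern over the 12 libraries were listed for each. For TRAF1 they were RABEPK (r = 0.991), TRMT1 (0.98) and NFKBIE (0.969), which encodes IkB-epsilon. For BIRC3 they were FAM91A1 (0.991), CALCOCO2 (0.98) and TRIB3 (0.978), and for TNFAIP3 they were DGKI (0.988), VPS25 (0.974) and S100A16 (0.972). For TNFAIP2 they were SERPINB1 (0.994), KLHL2 (0.982) and SCG2 (0.979), and for SOD2 KIAA0664 (0.973), FAM172A (0.967) and RP11-244B22.13 (0.957). NFKBIE, for instance, averaged 9.35 CPM in siMRG15, 26.1 CPM in siMRGX, 14.1 CPM in siMRGBP, 15.3 CPM in siBRD8 and 20.6 CPM in siTIP60, against 11.8 CPM in siLuc. These were the highest values of r among 8808 genes over 6 conditions, and they are given as a description.

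A separate readout was the authors' deposited table of 25895 transcripts, named for splicing, which marks each as up or down (0 or 1) against siLuc. The threshold behind a mark is not given. Nor is it given whether a mark concerns the level of a transcript or its share of the gene. In the authors' deposited table there were 13 transcripts of the 5 genes, namely 1 of TRAF1, 3 of BIRC3, 2 of TNFAIP3, 2 of TNFAIP2 and 5 of SOD2. Of these 13, the authors' deposited table marked 1 up and 2 down in siMRG15, 5 up and 2 down in siMRGX, 5 up and 1 down in siMRGBP, 4 up and 1 down in siBRD8, and 8 up and 1 down in siTIP60. Over all transcripts of the authors' deposited table, the shares marked up and down were 7.29% and 13% in siMRG15, 8.19% and 14.1% in siMRGX, 9.99% and 5.83% in siMRGBP, 5.39% and 5.09% in siBRD8, and 20.1% and 17.9% in siTIP60. The marks come from the same libraries as the CPM and are not independent of them.

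The marks of SOD2 differed by transcript. In the authors' deposited table the SOD2 transcript ENST00000367054 was marked down in all 5 knockdowns, while the CPM of the gene was above siLuc in all 5. The marks and the CPM may be unlike measures. The authors' deposited table marked ENST00000546260 of SOD2 up in siMRGX, siBRD8 and siTIP60, the groups with the highest SOD2 levels, and ENST00000337404 and ENST00000545162 up in siTIP60. The transcript of TRAF1, ENST00000540010, was marked up in the authors' deposited table in every knockdown but siMRG15. For BIRC3 the authors' deposited table marked ENST00000526421 up in the same 4 knockdowns, and ENST00000673846 up in siMRGX, siMRGBP and siTIP60 and down in siMRG15. TNFAIP3 had ENST00000619035 marked up in all 5 knockdowns and ENST00000612899 up in siMRGBP and siTIP60 in the authors' deposited table. For TNFAIP2 the only mark in the authors' deposited table was ENST00000559255, down in siMRGX.

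**Figure D4:**
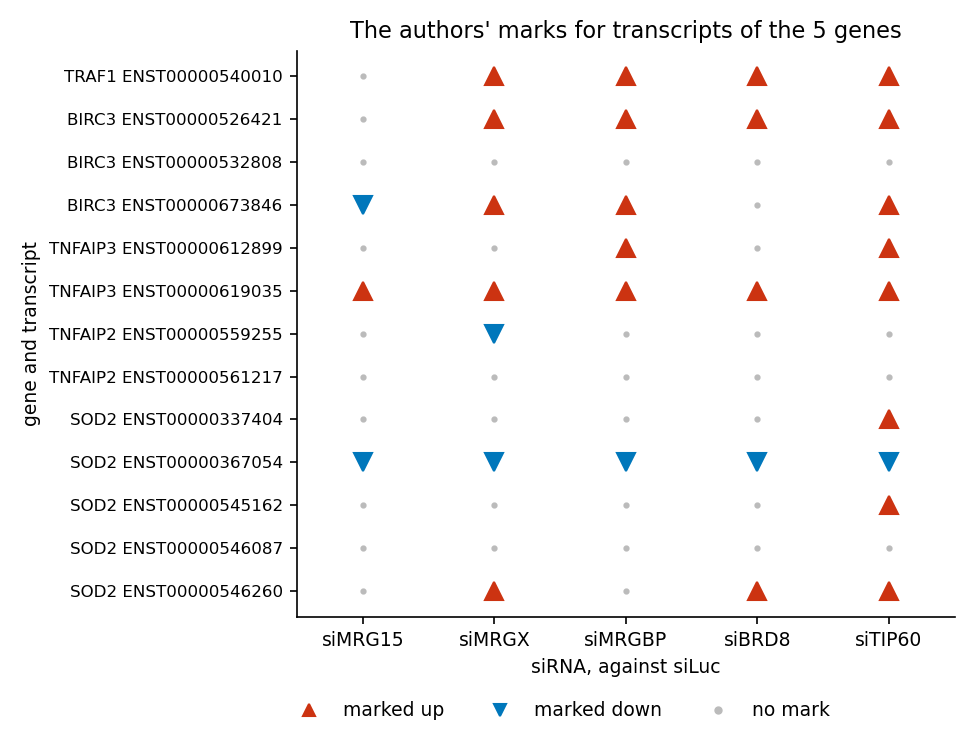
Marks in the authors' deposited table for the 13 transcripts of the 5 genes (rows) in each knockdown against siLuc (columns); triangles up and down are marks, dots are transcripts without one. SOD2 ENST00000367054 is marked down in all 5 knockdowns, and TNFAIP3 ENST00000619035 is marked up in all 5.

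The rest of the NF-kB pathway was taken from 9 lists by role, which leave out the 5 genes. Of 111 listed genes 55 were among the genes tested, and genes outside the table were not analysed here. In siMRG15 11 of the 55 were higher and 33 lower, with a median log2 difference of -0.33. In siMRGX 34 were higher and 11 lower (median 0.55), in siMRGBP 29 higher and 11 lower (median 0.25), in siBRD8 17 higher and 15 lower (median 0.06) and in siTIP60 34 higher and 17 lower (median 0.50). Of all genes, 33.5% were higher and 35.8% lower in siMRG15, 28.2% and 40% in siMRGX, 32.1% and 32.9% in siMRGBP, 28.3% and 25.9% in siBRD8, and 41.1% and 37.7% in siTIP60. The shares called in either direction were 80%, 81.8%, 72.7%, 58.2% and 92.7%, beside 69.3%, 68.2%, 65%, 54.2% and 78.8% of all genes. The genes named in what follows were picked by a rule from these lists, which for most lists took the smallest adjusted p-values. Each value is a log2 difference from siLuc with its limma adjusted p over the 8808 genes, and called means that p under 0.05. All 8808 genes were deposited under a heading of significant differential expression. The p-values, calls and shares therefore describe these genes and are not a fresh test of them.

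**Figure D5:**
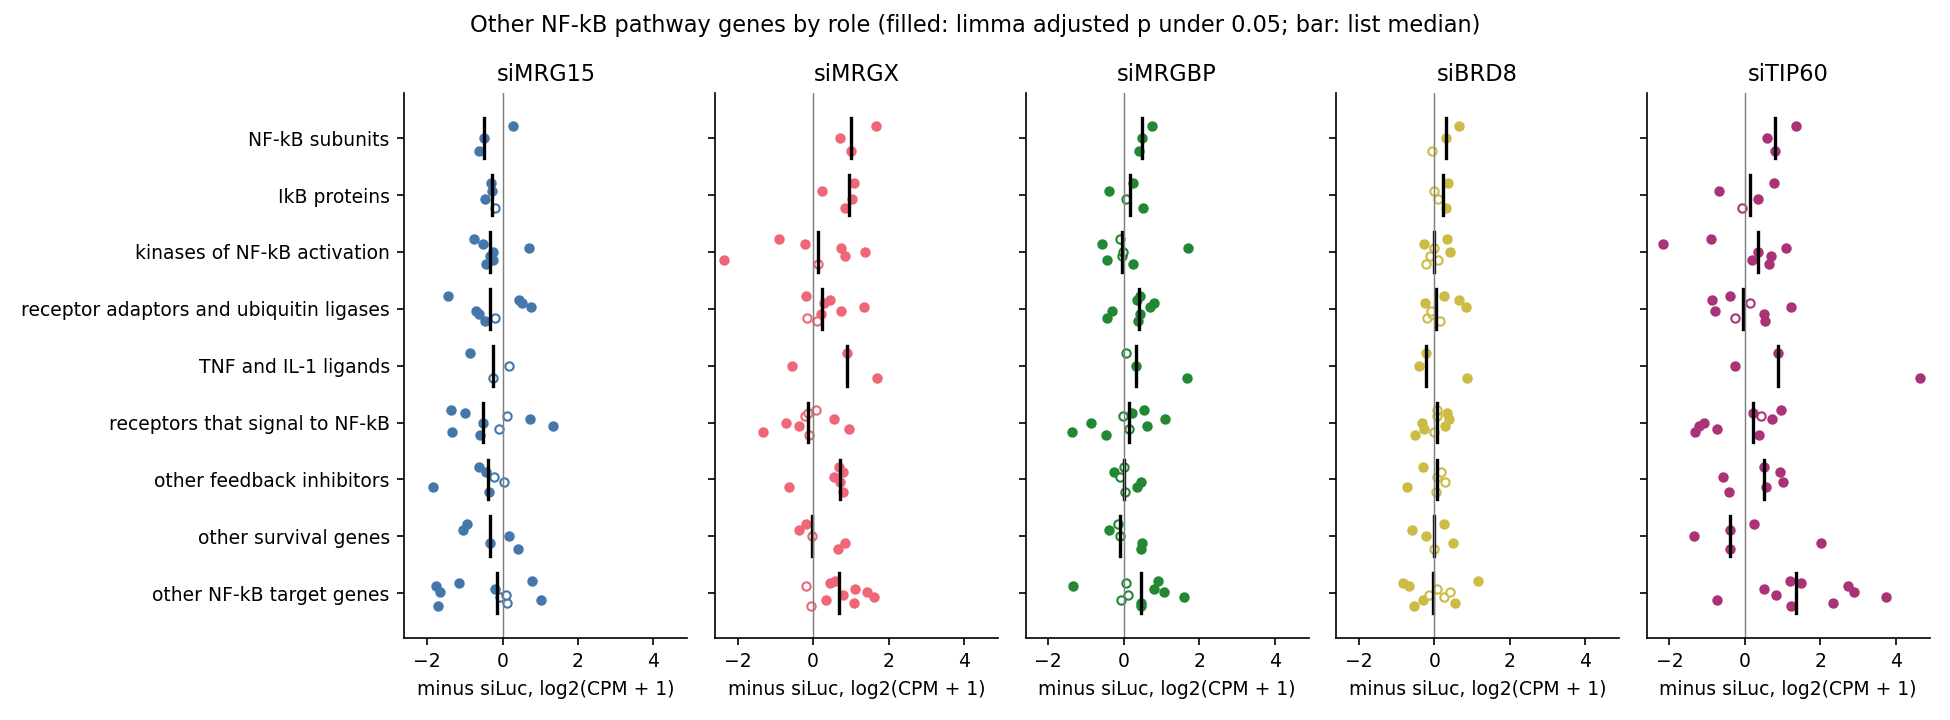
Log2 difference from siLuc (horizontal axis, log2(CPM + 1)) of the 55 measured pathway genes by role (rows) in each knockdown (panels). Filled points had a limma adjusted p under 0.05, open points did not, and black bars are list medians. The NF-kB subunits lie to the right of 0 in siMRGX, siMRGBP and siTIP60, and 33 of the 55 genes were lower in siMRG15.

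The measured NF-kB subunits, 3 of 5 listed, were higher in siMRGX, siMRGBP and siTIP60 (all genes, 28.2%, 32.1% and 41.1% higher). RELB, the subunit of the non-canonical dimer, averaged 36.4 ± 1.6 CPM in siMRGX and 29.4 ± 0.979 CPM in siTIP60, against 10.9 ± 2.28 CPM in siLuc (SD, n = 2 each), log2 differences of 1.66 ± 0.10 and 1.36 ± 0.10 (limma adjusted p = 2.3e-08 and 6.65e-08). RELA, the main activating subunit, rose by 0.72 ± 0.06 in siMRGX, 0.48 ± 0.06 in siMRGBP, 0.30 ± 0.06 in siBRD8 and 0.58 ± 0.06 in siTIP60, and fell by 0.49 ± 0.06 in siMRG15 (limma adjusted p at most 0.00135). NFKB2, the precursor of p52, rose by 1.00 ± 0.13 in siMRGX and 0.79 ± 0.13 in siTIP60 and fell by 0.62 ± 0.13 in siMRG15 (limma adjusted p at most 0.000761). The siLuc libraries differed for NFKB2 (57.3 ± 15.9 CPM, SD, n = 2). Its difference in siMRG15 was -0.34 without replicate 1 of siLuc, and that in siTIP60 was 0.51 without replicate 2, both still called. Its 0.40 ± 0.13 in siMRGBP lost the call without replicate 2 of siLuc (0.12) or replicate 2 of siMRGBP (0.39) and was 0.68 without replicate 1 of siLuc, and its value in siBRD8 was -0.07 with both, 0.21 without replicate 1 and -0.35 without replicate 2. The increase of RELB in siMRG15, 0.28 ± 0.10, was no longer called without replicate 2 of siLuc (0.09) or replicate 1 of siMRG15 (0.24), and was 0.48 without replicate 1 of siLuc.

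Of the IkB proteins, which retain NF-kB in the cytoplasm, 4 of 6 listed were measured, and all 4 were higher in siMRGX (all genes, 28.2% higher and 40% lower). NFKBIE rose by 1.09 ± 0.09, NFKBIB by 1.03 ± 0.08 and NFKBIA by 0.85 ± 0.10 (limma adjusted p at most 9.56e-06), and NFKBID by 0.24 ± 0.08, a call that was lost when any 1 of replicate 1 or 2 of siMRGX or replicate 2 of siLuc was left out. In siMRG15 NFKBIB fell by 0.47 ± 0.08, NFKBIE by 0.30 ± 0.09 and NFKBID by 0.28 ± 0.08, and NFKBIA stood at -0.20 ± 0.10 without a call; the call of NFKBIE was lost without replicate 1 of siLuc (-0.18) or replicate 2 of siMRG15 (-0.22), and that of NFKBID without replicate 2 of siMRG15 (-0.23). In siTIP60 NFKBIE rose by 0.77 ± 0.09 and NFKBIB by 0.36 ± 0.08, NFKBID fell by 0.69 ± 0.08, and NFKBIA, a classic target of the pathway, stood at -0.07 ± 0.10 (limma adjusted p = 0.547). In siMRGBP NFKBIA rose by 0.50 ± 0.10 (0.31 without replicate 1 of siMRGBP) and NFKBID fell by 0.40 ± 0.08.

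Among kinases of the pathway, 7 of 15 listed were measured, and single genes moved far. IRAK1, a kinase of interleukin-1 and Toll-like receptors, fell to 74.3 ± 0.629 CPM in siMRGX, against 383 ± 35.6 CPM in siLuc (SD, n = 2 each; log2 difference -2.35 ± 0.07, limma adjusted p = 1.94e-10). MAP3K14, the NIK kinase that starts the non-canonical pathway, rose by 1.38 ± 0.08 in siMRGX, 0.42 ± 0.08 in siBRD8 and 0.36 ± 0.08 in siTIP60, and stood at -0.02 ± 0.08 in siMRGBP. In siMRG15 MAP3K14 fell by 0.25 ± 0.08 (limma adjusted p = 0.0112), a call that was lost without replicate 1 of siLuc (-0.13) or replicate 1 of siMRG15 (-0.21). TAB2, an adaptor of the kinase TAK1, fell by 2.16 ± 0.08 in siTIP60 (limma adjusted p = 9.28e-11), and its other differences lay between -0.57 ± 0.08 in siMRGBP and -0.21 ± 0.08 in siMRGX. The siMRGX call was lost with TMM factors (-0.09), with median-of-ratios factors (-0.05) and in a fit of the 2 groups alone. Without replicate 2 of siLuc TAB2 stood at -0.13 in siMRGX and -0.18 in siBRD8. RIPK2, the kinase of NOD receptors, rose by 0.70 ± 0.06 in siMRG15, 0.75 ± 0.06 in siMRGX, 1.70 ± 0.06 in siMRGBP and 1.09 ± 0.06 in siTIP60 (limma adjusted p at most 7.53e-07) and stood at 0.00 ± 0.06 in siBRD8.

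Adaptors and ubiquitin ligases act beside TRAF1 and BIRC3, and 8 of 15 listed were measured. TRAF3, which restrains MAP3K14, was higher in all 5 knockdowns, by 0.75 ± 0.07 in siMRG15, 1.36 ± 0.07 in siMRGX, 0.69 ± 0.07 in siMRGBP, 0.85 ± 0.07 in siBRD8 and 1.23 ± 0.07 in siTIP60 (limma adjusted p at most 2.97e-06). TRAF2, which binds TRAF1 and the cIAP proteins, rose by 0.73 ± 0.07 in siMRGX, fell by 0.70 ± 0.07 in siMRG15, by 0.32 ± 0.07 in siMRGBP and by 0.80 ± 0.07 in siTIP60, and stood at -0.08 ± 0.07 in siBRD8. BIRC2, which encodes cIAP1, the closest relative of BIRC3, differed by -0.47 ± 0.09 in siMRG15, 0.39 ± 0.09 in siMRGBP and 0.53 ± 0.09 in siTIP60 (limma adjusted p at most 0.00216), and by 0.10 ± 0.09 in siMRGX and 0.14 ± 0.09 in siBRD8 without a call. XIAP, a caspase inhibitor, fell by 1.44 ± 0.08 in siMRG15, and its other differences lay between -0.40 ± 0.08 in siTIP60 and 0.42 ± 0.08 in siMRGBP. TRAF7 fell by 0.87 ± 0.07 in siTIP60 and was higher in the other 4 knockdowns, by 0.34 ± 0.07 to 0.66 ± 0.07.

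Ligands and receptors were mixed. IL1A, the cytokine interleukin-1 alpha, averaged 49.7 ± 0.547 CPM in siTIP60, against 1.02 ± 0.0176 CPM in siLuc (SD, n = 2 each; log2 difference 4.65 ± 0.13, limma adjusted p = 2.89e-11), and rose by 1.69 ± 0.13 in siMRGX, 1.68 ± 0.13 in siMRGBP and 0.87 ± 0.13 in siBRD8. TNFSF15, a ligand of the TNF family, rose by 0.90 ± 0.09 in siMRGX and 0.87 ± 0.09 in siTIP60 and fell by 0.85 ± 0.09 in siMRG15. TNFRSF10B, a death receptor for TRAIL, was higher in all 5 knockdowns (0.39 ± 0.06 to 1.09 ± 0.06), and TLR4, the receptor for lipopolysaccharide, was lower in all 5 (-1.07 ± 0.07 to -0.33 ± 0.07). TNFRSF9, a receptor that signals through TRAF1 and TRAF2, fell by 1.37 ± 0.07 in siMRG15, rose by 0.53 ± 0.07 in siMRGBP and by 0.97 ± 0.07 in siTIP60, and stood at 0.07 ± 0.07 in siMRGX and 0.08 ± 0.07 in siBRD8. In siMRGX the TNFRSF9 value depended on the scaling and was called at 0.18 with TMM factors and at 0.22 with median-of-ratios factors (limma adjusted p = 0.049 and 0.0215).

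Of the other feedback inhibitors 6 of 12 listed were measured, and 4 were lower and none higher in siMRG15 (all genes, 35.8% lower and 33.5% higher), 5 higher and 1 lower in siMRGX (28.2% higher and 40% lower), 2 higher and 1 lower in siMRGBP (32.1% and 32.9%), 2 lower and none higher in siBRD8 (25.9% lower and 28.3% higher), and 4 higher and 2 lower in siTIP60 (41.1% higher and 37.7% lower). TNIP1, a partner of TNFAIP3, rose by 0.71 ± 0.13 in siMRGX and 1.00 ± 0.13 in siTIP60 (limma adjusted p = 0.000253 and 8.39e-06), and the siMRGX value was 0.44 without replicate 2 of siLuc. It also rose by 0.45 in siMRGBP, a call that was lost in a fit of the 2 groups alone. That value was 0.72 without replicate 1 of siLuc and 0.18 without replicate 2. In siBRD8 TNIP1 was not called. The siLuc libraries differed for TNIP1 (61.9 ± 16.6 CPM, SD, n = 2), and its 0.04 ± 0.13 in siMRG15 became 0.31 without replicate 1 of siLuc and -0.23 without replicate 2, both past the threshold. RNF11, another partner of TNFAIP3, fell by 1.83 ± 0.07 in siMRG15, by 0.64 ± 0.07 in siMRGX and by 0.71 ± 0.07 in siBRD8, and rose by 0.34 ± 0.07 in siMRGBP and 0.55 ± 0.07 in siTIP60. FAM105B, the older symbol of the deubiquitinase OTULIN, rose by 0.78 ± 0.06 in siMRGX and fell by 0.35 ± 0.06 in siMRG15 and by 0.42 ± 0.06 in siTIP60.

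Of the other survival genes 5 of 11 listed were measured. In siMRG15 2 were higher and 3 lower (all genes, 33.5% and 35.8%), and in siMRGX 2 higher and 2 lower (28.2% and 40%). In siMRGBP 2 were higher and 1 lower (32.1% and 32.9%), in siBRD8 2 higher and 2 lower (28.3% and 25.9%), and in siTIP60 2 higher and 3 lower (41.1% and 37.7%). BCL2A1, an anti-apoptotic relative of BCL2, averaged 6.29 ± 0.199 CPM in siTIP60, against 0.812 ± 0.00684 CPM in siLuc (SD, n = 2 each; log2 difference 2.01 ± 0.11, limma adjusted p = 2.61e-09), and rose by 0.84 ± 0.11 in siMRGX and by 0.49 ± 0.11 in siMRGBP and in siBRD8. In siMRG15 BCL2A1 stood at -0.33 ± 0.11, a call that was lost without either siMRG15 library. BIRC5, the mitotic family member survivin, fell by 1.35 ± 0.06 in siTIP60. GADD45B, a stress-induced gene, was lower in all 5 knockdowns, by values from -1.06 ± 0.07 in siMRG15 to -0.38 ± 0.07 in siMRGX and in siTIP60. IER3, an early response gene, fell by 0.95 ± 0.07 in siMRG15.

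Of the other target genes 10 of 21 listed were measured, and 2 were higher and 5 lower in siMRG15 (all genes, 33.5% higher and 35.8% lower), 8 higher and none lower in siMRGX (28.2% and 40%), 6 higher and 1 lower in siMRGBP (32.1% and 32.9%), 2 higher and 4 lower in siBRD8 (28.3% and 25.9%), and 9 higher and 1 lower in siTIP60 (41.1% and 37.7%). CSF2, the growth factor GM-CSF, averaged 18.7 ± 0.581 CPM in siTIP60, 3.5 ± 0.056 CPM in siMRGX and 3.51 ± 0.843 CPM in siMRGBP, against 0.465 ± 0.0685 CPM in siLuc (SD, n = 2 each), with log2 differences of 3.75 ± 0.11, 1.62 ± 0.11 and 1.61 ± 0.11. The chemokine CCL20 rose by 1.09 ± 0.11 in siMRGX, 0.45 ± 0.11 in siMRGBP, 0.54 ± 0.11 in siBRD8 and 2.33 ± 0.11 in siTIP60, and stood at 0.11 ± 0.11 in siMRG15. MMP9, a secreted protease, rose by 2.74 ± 0.09 in siTIP60 and fell by 1.76 ± 0.09 in siMRG15, by 1.35 ± 0.09 in siMRGBP and by 0.68 ± 0.09 in siBRD8. The chemokine CCL2 rose by 1.22 ± 0.08 in siTIP60 and 0.46 ± 0.08 in siMRGBP and fell by 1.70 ± 0.08 in siMRG15 and by 0.54 ± 0.08 in siBRD8 (limma adjusted p at most 0.000305).

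Set directly against siMRG15, siMRGX had 40 of the 55 pathway genes higher and 8 lower (median 0.82; all genes, 33.6% higher and 40.8% lower), among them all 3 subunits, all 4 IkB proteins and all 6 feedback inhibitors; 87.3% were called, beside 74.5% of all genes. RELB differed by 1.38 ± 0.10, NFKB2 by 1.62 ± 0.13 and RELA by 1.21 ± 0.06 (limma adjusted p at most 1.06e-07). Against siMRGBP, siMRGX had 28 higher and 15 lower (median 0.26; all genes, 30.1% higher and 40.9% lower), with 78.2% called beside 71.1% of all genes. All 4 IkB proteins were higher there, led by NFKBIB at 0.96 ± 0.08 and NFKBIE at 0.84 ± 0.09, and the call of NFKBIA, 0.35 ± 0.10, was lost without replicate 2 of siMRGBP (0.17), while without replicate 1 it was 0.54. In the same comparison CSF2 and IL1A stood at 0.01 ± 0.11 and 0.01 ± 0.13 without a call.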

How the data were processed

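RNA-seq of 12 U2OS libraries was analysed, in 6 siRNA groups of 2 taken from the sample labels. The 4 K562 chromatin immunoprecipitation samples were not analysed here. The authors deposited CPM values per gene and library. Build hg19 and the tools featureCounts, Subread 2.0.0, minimap2 2.17-r941, MACS2 2.0.10 and Bowtie2 2.1.6 are named, without their roles, in the submitters' processing notes. Neither the strand setting of the counting nor the rule behind the selection of genes is stated there, so reads of overlapping genes cannot be told apart. Of 8813 rows 5 repeated another and were removed, which left 8808 genes. In every library 100% of values were whole reads within a tolerance of 0.01 reads.

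CPM are not counts, so limma 3.58.1 with an intensity trend (R 4.3.3) was fitted to log2(CPM + 1) with 6 group means, no block and no filter, and p-values (two-sided, threshold 0.05) received Benjamini-Hochberg adjustment over 8808 genes. edgeR 4.0.16 and DESeq2 1.42.0 were run on the recovered reads as alternatives. The authors' deposited 0 or 1 marks of transcripts were used as they stand. The members, the lists by role and the motifs were chosen with earlier results of these data known. Named were the 5 genes, the siRNA targets, the 3 genes with the highest r to each, all measured subunits and IkB proteins, up to 4 genes of each other list with the smallest adjusted p against siLuc, and BIRC2, TRAF2, TNF, CYLD, TNIP1 and XIAP where measured. Alternatives were other scalings, pseudocounts, a filter at 5 CPM, fits of 2 groups alone, a replicate block, no trend and each library left out.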

Additional observations from a re-analysis of the deposited data

How the results depend on the processing

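The number of the 5 genes called against siLuc (3 in siMRG15 and 5 in each other knockdown) was the same in all 70 alternatives, library by library included (3 to 3 and 5 to 5). Of all genes 69.3% were called in siMRG15, 68.2% in siMRGX, 65% in siMRGBP, 54.2% in siBRD8 and 78.8% in siTIP60. The 5 genes were chosen with their levels in these same libraries known, so nothing is read from the stable count. Among the recomputed differences of the 5 genes 0 called values changed sign, 401 moved by less than the spread between replicates and 89 by more. The pathway counts stayed within 1.5 times in all 98 alternatives and the counts over all genes in 92 of 98. The other 6 came from the filter at a mean of 5 CPM, which tests fewer genes and called 3801 in siMRG15, 3820 in siMRGX, 3652 in siMRGBP and 4206 in siTIP60, and 4141 and 3936 in siMRGX against siMRG15 and against siMRGBP. Over all genes edgeR called 6142 genes in siMRG15, 6073 in siMRGX, 5674 in siMRGBP, 4906 in siBRD8 and 6954 in siTIP60, and DESeq2 5887, 5821, 5400, 4622 and 6722. Leaving out 1 library gave 5380 to 6078, 5192 to 5852, 5193 to 5571, 3728 to 4784 and 6307 to 6814 in the same order, and a lone library was assumed to vary like the other groups. BIRC3 in siMRGX against siMRGBP, 0.14, passed the threshold only without replicate 1 of siMRGBP. Of the other named genes' alternatives 3975 kept their side of the threshold, 121 lost a call and 69 gained one. XIAP in siMRGX was called at -0.20 and not with TMM factors (-0.09), whereas BIRC2 in siMRGX, 0.10, was called with them (0.22); the causes were not tested. Replicate numbers did not pair the libraries consistently: over the 15 pairs of groups, deviations from group means correlated at -0.47 to 0.18. The -0.47 was between siMRGBP and siLuc, the groups whose libraries differed most (medians of 0.127 and 0.122), and its source was not tested. With a replicate block the calls were 6029, 5907, 5629, 4632 and 6869 against siLuc, and 6507 and 6192 in siMRGX against siMRG15 and siMRGBP; the pathway counts were 44, 45, 39, 30, 51, 48 and 41. Depth limits TRAF1 most, with 141 and 167 reads in the siMRG15 libraries.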

Other observations

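Genes that share a name or a function with TNFAIP2 and SOD2 were read in the same fit, with limma adjusted p-values over the 8808 genes. Here too the p-values describe genes deposited as differentially expressed and are not a fresh test. TNFAIP6, another gene first found as TNF-induced, was lower in all 5 knockdowns: it averaged 0.59 ± 0.0895 CPM in siMRG15, 0.865 ± 0.0359 CPM in siMRGX, 4.69 ± 0.158 CPM in siMRGBP, 2.85 ± 0.878 CPM in siBRD8 and 1.71 ± 0.312 CPM in siTIP60, against 7.8 ± 1.68 CPM in siLuc (SD, n = 2 each), with log2 differences of -2.46 ± 0.15 to -0.62 ± 0.15 (limma adjusted p at most 0.00356). TNFAIP1 was higher in 4 knockdowns, by 0.36 ± 0.06 to 1.06 ± 0.06, and stood at 0.09 ± 0.06 in siTIP60. TNFAIP8 rose by 0.63 ± 0.10 in siMRG15 and fell by 0.73 ± 0.10 in siMRGX and by 0.86 ± 0.10 in siTIP60.

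Of 11 genes of the exocyst, a vesicle tethering complex that M-Sec is known to work with, and its RAL regulators 3 were measured. EXOC5 was higher in all 5 knockdowns, by 0.69 ± 0.07 in siMRG15, 1.19 ± 0.07 in siMRGX, 1.12 ± 0.07 in siMRGBP, 0.89 ± 0.07 in siBRD8 and 0.95 ± 0.07 in siTIP60 (limma adjusted p at most 3.16e-06). EXOC6B rose by 0.46 ± 0.08 in siMRG15 and fell by 0.57 ± 0.08 in siMRGX, and EXOC8 fell by 0.87 ± 0.07 in siMRG15. Of 17 other superoxide and peroxide enzymes 2 were measured. TXNRD1, thioredoxin reductase, rose by 1.06 ± 0.08 in siMRGX, 1.09 ± 0.08 in siMRGBP and 0.34 ± 0.08 in siTIP60 and fell by 0.43 ± 0.08 in siMRG15, and GPX8, a glutathione peroxidase relative, was lower in every knockdown but siMRGBP, where it rose by 0.32 ± 0.08.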
